A study of Mus musculus with 8 samples.

Results

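The Id, Hes and Hey genes encode helix-loop-helix proteins that hold back transcription. Id proteins have a helix-loop-helix dimerisation domain without a DNA-binding basic region, so they tie up E proteins and keep them from pairing with activating bHLH factors such as the Neurod group. Hes and Hey proteins bind DNA, and Hes proteins recruit corepressors of the Tle (Groucho) family. In neural tissue the Id genes are textbook targets of BMP signalling through SMAD proteins, and Hes1, Hes5 and the Hey genes are textbook targets of Notch signalling through the DNA-binding factor Rbpj. Both sets are known from neural stem cells and astrocytes, where they keep neuronal genes off.

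The 10 genes Id1, Id2, Id3, Id4, Hes1, Hes5, Hes6, Hey1, Hey2 and Heyl were taken by symbol from 22180 named genes. Each was represented by the probe set with 1 gene symbol that had the highest mean over all arrays, a choice that did not use the comparison of the groups. A single probe set carried the symbol for 9 of the 10, and Hes5 had a second one. The arrays came from hippocampal neurons of E18.5 (embryonic day) C57BL/6J mice, an inbred laboratory strain, grown for 11 days in vitro in a medium with AraC, which kills dividing cells. The first group of 4 arrays came from such cultures kept in 55 mM KCl for 4 h. The second group of 4 came from untreated cultures of the same strain, stage and age. Raised potassium depolarises neurons and lets calcium in, and the study asked which genes respond to this stand-in for activity. No mouse number in the labels occurs on more than 1 array. The labels do not say whether the arrays stand for single embryos or pools.

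Values are the authors' log2 probe set values, so a difference of 1 is a 2-fold change. They compress differences of dim probe sets, and the number of arrays limits their precision. The treatment was visible on the arrays: all 6 immediate-early genes checked were higher in all 4 same-numbered pairs, as were 11% of all genes. Of the 6, 5 rose at a limma adjusted p under 0.05, with Fos at a log2 change of 4.19 (limma adjusted p = 0.000540). Npas4 missed that threshold. The arrays numbered 1 stood apart from the rest in both groups, at scores of 43.2 (KCl) and 48.6 (untreated) on a first principal component that took 36.6% of the variance, against -26.6 to 4.58 for the other 6. Changes of the 10 genes are therefore also given without them. The neuron label was borne out by all 14 neuron markers lying above 4.76, the level of the median gene. Also above it were 10 of 12 astrocyte markers, among them Gfap and Aqp4, and 9 of 12 progenitor and cycling markers. Only 1 of 8 microglial, 1 of 7 oligodendrocyte and 1 of 6 fibroblast markers were. Olig1 and Olig2 were listed with the bHLH genes and not among the oligodendrocyte markers, and both lay above the median gene. Their means were 7.3 (KCl) and 7.3 (untreated) for Olig1, and 6.8 (KCl) and 6.7 (untreated) for Olig2. By definition as many genes lie above the median gene as below it. By their astrocyte markers the cultures held RNA of more than neurons. In such bulk samples fewer cells of a type and less RNA per cell cannot be told apart.

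None of the 10 genes passed the test after 4 h of KCl, at a Benjamini-Hochberg adjusted limma p under 0.05 over all named genes, where 2.36% of all genes passed. At an unadjusted p under 0.05 there were also 0 of 10, against 13% of all genes. The smallest adjusted p was that of Hes1, at 0.587. The KCl and untreated arrays overlapped for all 10, while KCl arrays lay wholly above untreated ones for 3.83% of all genes and wholly below for 4.33%. The log2 change was above 0 for 6 genes and below 0 for 4, with a median of 0.01 over the 10 and -0.01 over all genes.

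**Figure D1:**
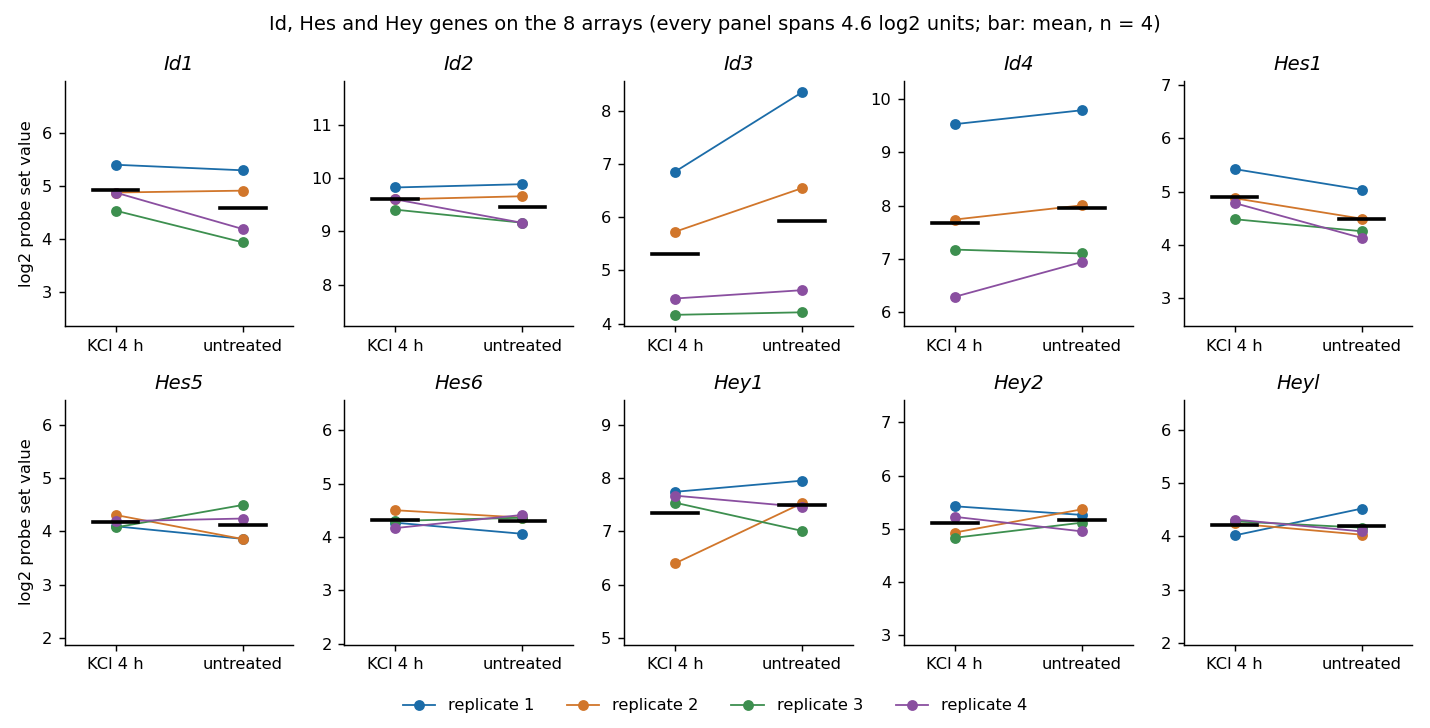
Log2 probe set values of the 10 genes on each array, with KCl 4 h on the left and untreated on the right of each panel, lines joining arrays of the same replicate number and black bars giving group means (n = 4 each). The lines of Id3 and Id4 are spread far apart by replicate number, with replicate 1 highest, and no panel shows the groups apart.

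Id1, an inhibitor of E proteins and a standard readout of BMP signalling, stood at 5.40, 4.87, 4.53 and 4.87 in KCl arrays 1 to 4, against 5.29, 4.91, 3.94 and 4.19 in untreated arrays 1 to 4. The KCl values lay within or near the untreated range, and the excess was in the arrays numbered 3 and 4. The log2 change was 0.34 (SE 0.310, 95% interval -0.37 to 1.05, limma adjusted p = 0.797), with 3 of 4 same-numbered pairs higher.

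Id2, which also opposes E proteins and is expressed in many maturing neurons, was at 9.83, 9.60, 9.41 and 9.60 in KCl arrays, against 9.89, 9.66, 9.16 and 9.16 in untreated arrays. Its 8 values spanned 0.73. KCl changed it by 0.14 on the log2 scale (SE 0.183, interval -0.28 to 0.56), and 2 of 4 pairs were higher.

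Id3, the Id family member closest to Id1 in its known response to BMP, had the widest spread of the 10 genes. It stood at 6.85, 5.72, 4.16 and 4.47 in KCl arrays, against 8.34, 6.54, 4.21 and 4.63 in untreated arrays. KCl values were lower in all 4 pairs, by 1.49 and 0.82 in the pairs numbered 1 and 2 and by 0.05 and 0.16 in those numbered 3 and 4. In the last 2 pairs the gene was near the bottom of its own range in both groups. The mean log2 change was -0.63 (SE 0.954, interval -2.81 to 1.55, limma adjusted p = 0.907). All 4 pairs were lower for 13.2% of all genes. Without untreated replicate 1 alone, which leaves its KCl partner unmatched, the value was 0.18, and without both arrays numbered 1 it was -0.34.

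Id4, known for marking quiescent neural stem cells and astrocytes, was at 9.53, 7.74, 7.17 and 6.29 in KCl arrays, against 9.79, 8.01, 7.10 and 6.94 in untreated arrays. The arrays numbered 1 were the highest of each group. Its log2 change was -0.28 (SE 0.797, interval -2.10 to 1.54), with 3 of 4 pairs lower. Its sign turned without KCl replicate 4 (0.19) or untreated replicate 1 (0.33). In the fit with group alone the intervals of Id3 and Id4 hold a change of 2-fold either way. With the replicate number as a block they were -1.21 to -0.05 for Id3 and -0.60 to 0.04 for Id4.

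Hes1, the Notch target that oscillates in neural progenitors and represses proneural genes, was at 5.42, 4.88, 4.48 and 4.79 in KCl arrays, against 5.04, 4.49, 4.26 and 4.13 in untreated arrays. It was the only one of the 10 genes that was higher in all 4 pairs, by 0.39, 0.38, 0.23 and 0.66. This holds for 11% of all genes. The groups still overlapped, because untreated replicate 1 lay above 3 of the 4 KCl arrays. Its log2 change was 0.41 (SE 0.246, interval -0.15 to 0.97), a 1.33-fold difference that missed the threshold (limma adjusted p = 0.587). The mean of Hes1 over the 8 arrays, 4.69, lay below the median gene (4.76), so this fold holds for the deposited scale only.

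Hes5, the other main Notch effector of neural stem cells, stood at 4.10, 4.31, 4.08 and 4.19 in KCl arrays, against 3.86, 3.86, 4.50 and 4.24 in untreated arrays. Hes6, which binds Hes1 and opposes its action in neurogenesis, stood at 4.27, 4.50, 4.30 and 4.17 in KCl arrays, against 4.06, 4.36, 4.36 and 4.41 in untreated arrays. Both genes overlapped between the groups, and all 16 values lay below the median gene. On the log2 scale the change was 0.05 for Hes5 (interval -0.30 to 0.41) and 0.01 for Hes6 (interval -0.25 to 0.27). The second Hes5 probe set had a log2 change of 0.05.

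Hey1, a Notch and BMP target that represses transcription with Hes partners, was at 7.74, 6.40, 7.54 and 7.67 in KCl arrays, against 7.95, 7.53, 7.01 and 7.46 in untreated arrays. KCl replicate 2 was the lowest of the 8 arrays. With all arrays the log2 change was -0.15 (SE 0.319, interval -0.88 to 0.58), and it was 0.16 without that array. It was 0.0056 without untreated replicate 1.

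Hey2, known chiefly from heart and vessel development, ranged from 4.83 to 5.42 in KCl arrays, against 4.95 to 5.37 in untreated arrays. Heyl, a close relative of both other Hey genes, ranged from 4.02 to 4.31 in KCl arrays, against 4.03 to 4.52 in untreated arrays. The log2 change was -0.07 for Hey2 (interval -0.42 to 0.28) and 0.01 for Heyl (interval -0.28 to 0.31). For Id2, Hes5, Hes6, Hey2 and Heyl the intervals exclude a change of 1.5-fold on the deposited scale, which understates changes of dim genes.

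**Figure D2:**
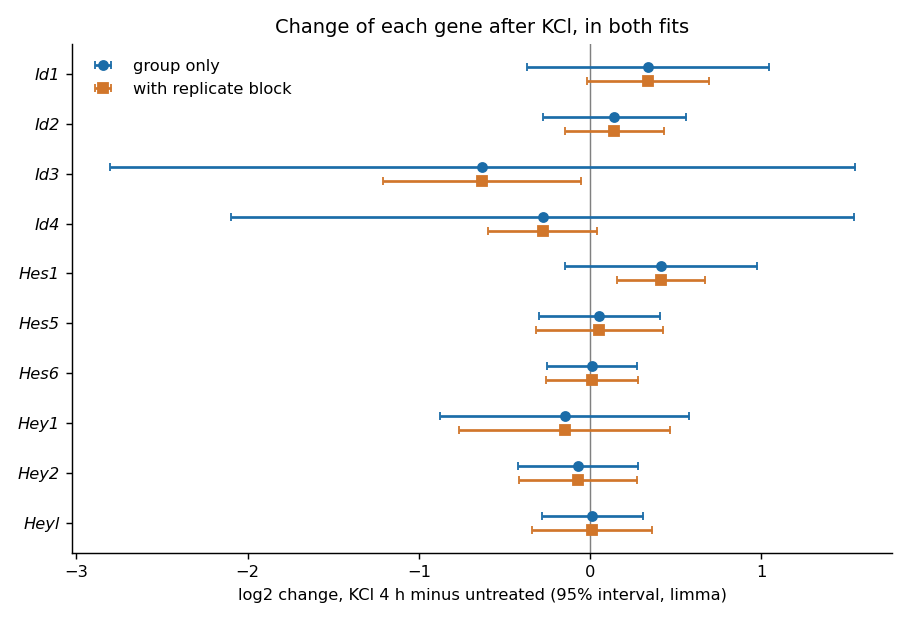
Log2 change of each gene after KCl (KCl 4 h minus untreated, horizontal axis) with its 95% interval, from the limma fit with group alone (circles) and with the replicate number as a block (squares). The intervals of Id3 and Id4 narrow most with the block, and the blocked intervals of Id3 (-1.21 to -0.05) and Hes1 (0.16 to 0.67) leave out 0 before adjustment over all genes.

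Same-numbered arrays of the groups resembled each other. With the replicate number as a block, the SE fell to 0.242 for Id3, 0.133 for Id4 and 0.107 for Hes1. None of the 10 genes passed in that fit either, where 4.44% of all genes did (2.43% higher and 2.01% lower). Before adjustment 2 of the 10, Id3 and Hes1, were under 0.05 in the blocked fit, against 18.2% of all genes. Their limma adjusted p was 0.232 for Id3 and 0.0919 for Hes1. Without both arrays numbered 1 the log2 change was 0.41 for Id1, 0.21 for Id2, -0.34 for Id3 and -0.28 for Id4. It was 0.42 for Hes1, -0.0067 for Hes5, -0.056 for Hes6, -0.13 for Hey1, -0.15 for Hey2 and 0.18 for Heyl, and none of the 10 genes passed. Of all genes, 2.1% passed there without the block and 2.43% with it.

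The replicate number itself was tested in a fit with group and number, added after the values were seen. Id3 (limma adjusted p = 0.0103) and Id4 (adjusted p = 0.00355) passed, 2 of 10 genes, where 4.26% of all genes passed. The pair means of Id3 were 7.60, 6.13, 4.19 and 4.55 for numbers 1 to 4, a range of 3.41. No fold is given for Id3, because its lowest pair means are as dim as Hes5, Hes6 and Heyl and their signal over background is unknown. Those of Id4 were 9.66, 7.87, 7.14 and 6.61, a range of 3.05 or 8.26-fold. Hes1 (range 0.86, adjusted p = 0.0663) and Id1 (range 1.11, adjusted p = 0.0927) missed the threshold, and the adjusted p of the other 6 genes was 0.268 to 0.981. Both calls were lost without the arrays numbered 1 (adjusted p = 0.0988 for Id3 and 0.211 for Id4), which leaves 6 arrays.

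Some genes of other cell types differed by replicate number as well. The mean of 12 astrocyte markers was 8.66 and 8.87 in the KCl and untreated arrays numbered 1, 8.31 and 8.47 in those numbered 2, 8.25 and 8.30 in those numbered 3, and 8.07 in both numbered 4. The mean of 14 neuron markers was 9.47 and 9.37 in the KCl and untreated arrays numbered 1, and 9.71 to 10.14 in the other 6. The number term passed for 2 of 12 astrocyte markers, the water channel Aqp4 and the gap junction gene Gja1, where 4.26% of all genes passed. It passed for 4 of 12 progenitor and cycling markers, Nes, Pax6, Vim and Mki67, for 1 of 14 neuron markers, Gad2, and for 2 of 8 endothelial and mural markers, Kdr and Pdgfrb. None of 7 oligodendrocyte, 8 microglial or 6 fibroblast markers passed. In the arrays numbered 1 and 2, Kdr stood at 7.91 and 8.34 (KCl) and 7.76 and 8.17 (untreated), and 3 of the 8 endothelial and mural markers, Kdr, Pdgfrb and Rgs5, lay above the median gene by their means. The other 5, Pecam1, Cldn5, Cdh5, Tek and Flt1, lay below it. The part of these cell types in the levels of Id3 and Id4 was not tested.

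**Figure D3:**
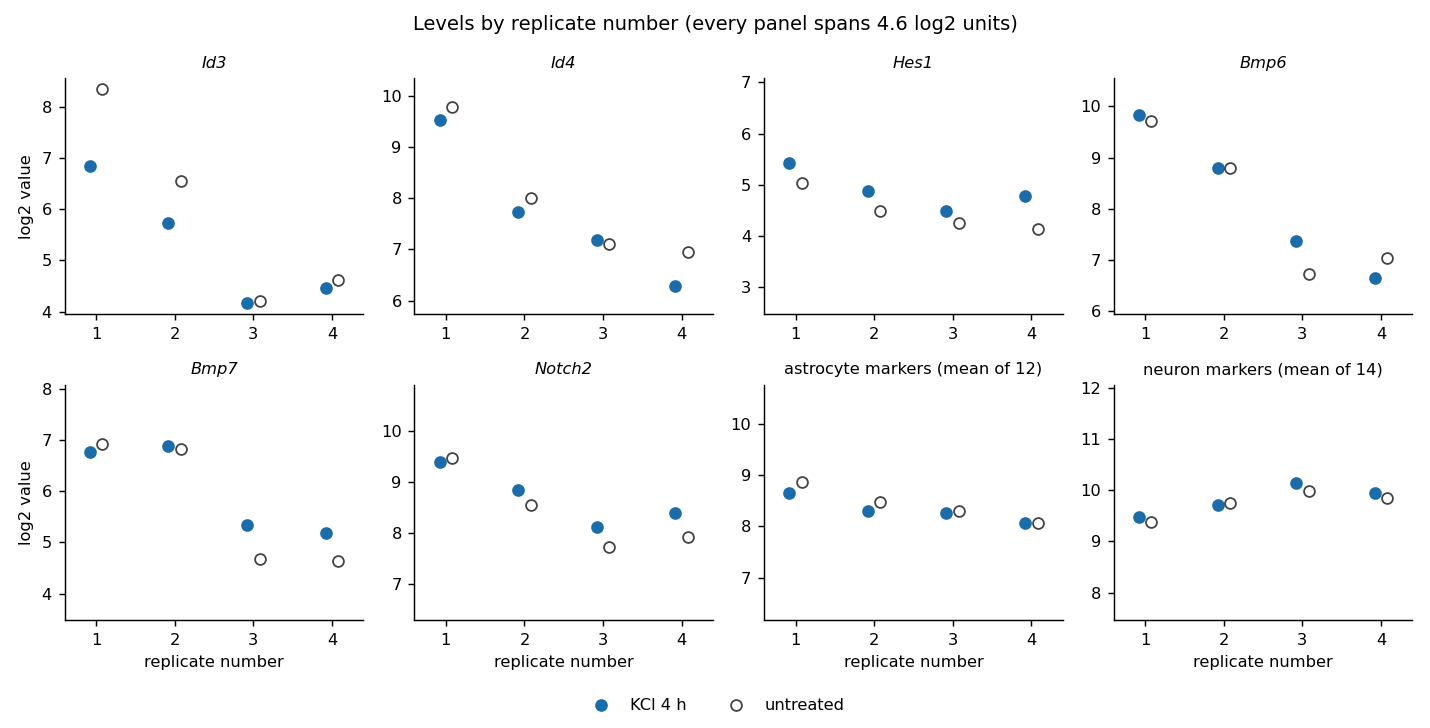
Log2 values by replicate number (horizontal axis) for 6 genes and for the means of 12 astrocyte and 14 neuron markers, with KCl 4 h arrays as filled and untreated arrays as open circles. Id3, Id4, Bmp6, Bmp7 and Notch2 are highest or near highest in the arrays numbered 1, while the neuron markers are lowest there.

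Likeness between genes was measured as the root mean square difference of their log2 profiles over the 8 arrays, each centred on its own mean. Predicted and clone names (with Rik, LOC, or Gm and digits) were left out of the ranking. The genes most like Id1 were Vezf1 (0.106), Mapkapk2 (0.131), Galk2 (0.134), Erbin (0.167) and Cnn3 (0.170). Those most like Hes1 were Ankrd44 (0.0882), Cnksr3 (0.108), Lamp2 (0.117), Rassf8 (0.136) and Golph3 (0.136). Between Id1 and Hes1 the difference was 0.200. Id3 and Id4 were added after their values were seen. The 5 genes nearest Id3 were Lbp (0.388), Pamr1 (0.402), Ucma (0.415), Serping1 (0.424) and Ltbp2 (0.433). Those nearest Id4 were Bace2 (0.175), Enkur (0.233), Lrriq1 (0.257), Fas (0.300) and Cfap52 (0.321). Id3 and Id4 differed from each other by 0.577.

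Promoter sequences from RefSeq, in build GRCm38.p6, were matched by symbol for 6 of the 10 genes. Those of Id3 and Id4, which differed most between replicate numbers, are shown beside those of Id2, which spanned the least among the Id genes, and of the Notch target Hes5. Each run gives the 250 bases before the annotated start, 5′ to 3′ in the direction of the gene. Capitals mark matches on either strand to TGACG (the core of a cAMP response element, bound by CREB), CCAAT (the NF-Y box), GGCGCC (a GC-rich SMAD element), CAGAC (a SMAD box) and TGGGAA (the Rbpj core).
Id2, chr12:25096093-25096342, minus strand: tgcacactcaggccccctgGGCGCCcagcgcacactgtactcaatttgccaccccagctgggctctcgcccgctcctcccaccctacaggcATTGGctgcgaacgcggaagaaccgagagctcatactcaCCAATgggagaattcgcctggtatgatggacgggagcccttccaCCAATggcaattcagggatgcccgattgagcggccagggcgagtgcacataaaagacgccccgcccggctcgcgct
Id3, chr4:136143572-136143821, plus strand: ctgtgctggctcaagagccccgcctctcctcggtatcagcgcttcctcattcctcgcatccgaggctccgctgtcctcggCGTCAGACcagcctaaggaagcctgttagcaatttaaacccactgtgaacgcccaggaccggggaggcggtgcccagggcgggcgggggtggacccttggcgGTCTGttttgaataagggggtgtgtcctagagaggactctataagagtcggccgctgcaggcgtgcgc
Id4, chr13:48260866-48261115, plus strand: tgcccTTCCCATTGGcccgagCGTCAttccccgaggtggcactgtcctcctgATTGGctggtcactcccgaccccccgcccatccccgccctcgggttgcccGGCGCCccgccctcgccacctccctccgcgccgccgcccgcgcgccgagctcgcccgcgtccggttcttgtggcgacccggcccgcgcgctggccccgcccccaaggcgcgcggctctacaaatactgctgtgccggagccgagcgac
Hes5, chr4:154960673-154960922, plus strand: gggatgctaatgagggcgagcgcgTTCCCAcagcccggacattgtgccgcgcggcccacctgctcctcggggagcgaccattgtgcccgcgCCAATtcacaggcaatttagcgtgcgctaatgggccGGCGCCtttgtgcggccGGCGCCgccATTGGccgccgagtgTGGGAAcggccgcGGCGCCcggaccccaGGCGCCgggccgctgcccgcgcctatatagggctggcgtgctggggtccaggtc

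The stretches of Id3 and Id4 each held 1 TGACG match, 170 to 166 bases before the start in Id3 and 229 to 225 in Id4, which 17.8% of 32851 mouse promoter stretches of the same length also did. In Id3 it overlapped 1 of 2 CAGAC matches, and the overlap makes the 8-letter run of capitals. CAGAC was in 42.2% of all stretches and in neither Id2 nor Id4. CCAAT, in 33.8% of all stretches, matched 3 times in Id2, 2 times in Id4 and 2 times in Hes5, and not in Id3. GGCGCC, in 9.59% of all stretches, matched once in Id2, once in Id4 and 4 times in Hes5. TGGGAA, in 21.6% of all stretches, matched 2 times in Hes5 and once in Id4, where its last letter is shared with a CCAAT match. The Hey2 stretch held 1 TGGGAA match and the Hes6 stretches held none. G and C made up 62.8 to 75.6% of the stretches named here, against a median of 52.4% over all 32851. The shares over all stretches are therefore not matched for base content. All matches given here are of letters in a short window and are not sites shown to be bound.

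The proteins that Id, Hes and Hey factors act on were followed through lists of partners. None of 3 E proteins, the direct targets of Id proteins, passed the KCl test. Tcf3 stood at 6.21, 5.80, 6.53 and 5.45 in KCl arrays, against 5.22, 6.11, 5.09 and 5.23 in untreated arrays (log2 change 0.59, limma adjusted p = 0.459). Tcf4 and Tcf12 had log2 changes of 0.11 and 0.10. None of 17 measured proneural and related bHLH genes passed. The smallest p among them was that of Neurod6, a factor of pyramidal neurons, at 9.37, 10.01, 9.72 and 9.70 in KCl arrays, against 10.23, 10.10, 10.57 and 10.47 in untreated arrays (log2 change -0.64, adjusted p = 0.0843). Its KCl arrays lay wholly below the untreated ones, as for 4.33% of all genes. Nhlh2 was at a log2 change of 0.45, Olig3 at 0.13 and Ascl2 at -0.13. The KCl arrays of Nhlh2 lay wholly above the untreated ones, as for 3.83% of all genes. None of 6 other bHLH repressors passed, with Hes3 at -0.28, Hes2 at 0.15, Bhlhe40 at -0.16 and Helt at 0.13. For Hes2 too the KCl arrays lay wholly above the untreated ones. The median log2 change was 0.11 over the E proteins, -0.03 over the proneural and related bHLH genes and -0.02 over the other repressors.

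Among 6 genes of the Tle family, to which the corepressors recruited by Hes proteins belong, 1 rose and 5 did not pass. Of all genes, 1.34% rose. Tle4 stood at 8.86, 8.58, 9.26 and 9.06 in KCl arrays, against 7.68, 8.13, 8.27 and 7.75 in untreated arrays. Every KCl array lay above every untreated one, and the change was 1.97-fold (log2 change 0.98, SE 0.185, limma adjusted p = 0.0337). With single arrays left out the call held only when KCl replicate 2 or untreated replicate 3 was dropped, and was lost for each of the other 6 (adjusted p up to 0.103), and without both arrays numbered 1 (0.0897). Tle1 had a log2 change of 0.42, Tle3 of 0.31 and Tle2 of 0.29, and the median over the 6 was 0.30.

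Among 12 Notch ligands and receptors, 1 fell and 11 did not pass, where 1.02% of all genes fell. Jag2, a ligand that activates Notch on neighbouring cells, stood at 5.15, 4.66, 4.71 and 5.00 in KCl arrays, against 6.27, 6.58, 5.67 and 5.58 in untreated arrays. Every KCl array lay below every untreated one, at 0.453 of the untreated level (log2 change -1.14, SE 0.235, limma adjusted p = 0.0471). The call was lost without any 1 array other than untreated replicate 4 (adjusted p up to 0.138) and without both arrays numbered 1 (0.0917). The related ligand Jag1 stood at 4.46, 5.66, 5.76 and 5.76 in KCl arrays, against 4.13, 4.69, 4.68 and 4.28 in untreated arrays. It was higher in all 4 pairs, with KCl replicate 1 lower than the other KCl arrays. Its log2 change of 0.97 missed the threshold (adjusted p = 0.177) and passed with the replicate block (adjusted p = 0.0375) and without both arrays numbered 1 (0.0110). Dll1 was at -0.27 and Notch3 at 0.27, and the median over the 12 was -0.04.

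None of 29 genes of the Notch signalling machinery passed, and the median log2 change was -0.09. Rbpj, the factor through which Notch reaches Hes and Hey genes, stood at 8.42, 7.74, 7.88 and 7.72 in KCl arrays, against 7.68, 7.29, 6.99 and 7.05 in untreated arrays. All KCl arrays lay above all untreated ones, by a small margin. Its log2 change was 0.69 (SE 0.204, adjusted p = 0.157), and it passed with the replicate block (limma adjusted p = 0.0230) and without both arrays numbered 1 (0.0444), but not with both changes together (0.0714). The coactivator Maml1 was at 0.48, the ubiquitin ligase Mib2 at 0.39 and Dtx4 at -0.63. For Maml1 and Mib2 the KCl arrays also lay wholly above the untreated ones, as for 3.83% of all genes.

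**Figure D4:**
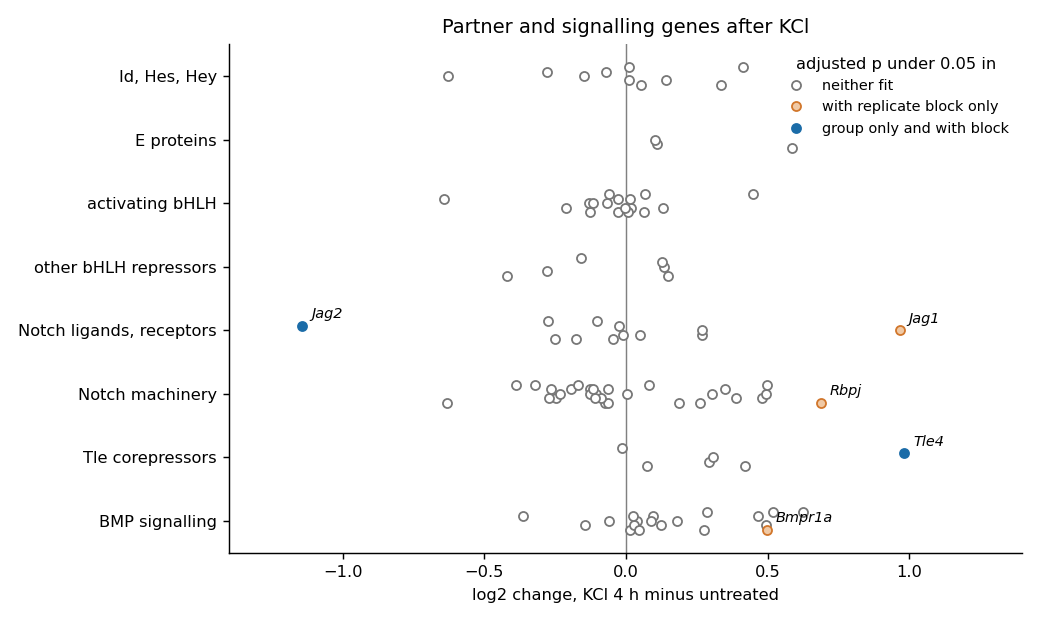
Log2 change after KCl (KCl 4 h minus untreated, horizontal axis) of the Id, Hes and Hey genes and of each measured gene in 7 partner and signalling lists, 1 circle a gene. The row labelled activating bHLH holds the proneural and related bHLH genes, and the row labelled Tle corepressors holds the Tle family genes. Tle4 and Jag2 are filled as passing in both fits, Jag1, Rbpj and Bmpr1a as passing with the replicate block only, of these 2 fits, and all 10 Id, Hes and Hey genes are open.

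None of 19 BMP signalling genes, which lie upstream of the Id genes, passed the KCl test, and their median log2 change was 0.10. Fst, which binds and blocks BMP and activin ligands, was at a log2 change of 0.47 (limma adjusted p = 0.182). Smad7, a feedback inhibitor of the pathway, was at 0.63 and missed the threshold too (adjusted p = 0.212). Bmpr1a, a type I receptor, was at 0.50, with an adjusted p of 0.247 that became 0.0474 with the replicate block and 0.117 with the block and without both arrays numbered 1. The replicate number test called 4 of the 19, the ligands Bmp6 and Bmp7, the receptor Bmpr1b and Smad5, beside 4.26% of all genes. Bmp6 stood at 9.84, 8.80, 7.38 and 6.66 in KCl arrays, against 9.72, 8.81, 6.72 and 7.04 in untreated arrays. Its pair means spanned 2.93, and it was high in the same numbered arrays as Id3 and Id4. Of the Notch genes, the number test called 1 of 12 ligands and receptors, Notch2, and 3 of 29 machinery genes, Maml2, Lfng and Neurl1b. It called 1 of 17 proneural and related bHLH genes, Neurod2. Neurod2 ran the other way from Id3, at 7.24, 7.47, 8.36 and 8.31 in KCl arrays, against 7.32, 7.86, 8.44 and 8.61 in untreated arrays. Whether these genes bear on the levels of the Id genes was not tested.

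Of the markers of other cells, 1 of 12 astrocyte markers fell with KCl, the glutamate transporter Slc1a2 (log2 change -0.78, limma adjusted p = 0.0479), where 1.02% of all genes fell. It missed the threshold with the replicate block (adjusted p = 0.0620) and without both arrays numbered 1 (0.130). Of 12 progenitor and cycling markers, 1 rose, the DNA polymerase clamp Pcna (0.81, adjusted p = 0.0191, and 0.0217 without both arrays numbered 1), where 1.34% of all genes rose. The median log2 change of the 12 was 0.35, and 5 of them, Nes, Pax6, Mki67, Cdk1 and Pcna, were higher in all 4 pairs, as were 11% of all genes. Another 1 of the 12 was lower in all 4 pairs, as were 13.2% of all genes. The mean level of the astrocyte list was 8.07 to 8.66 in KCl arrays, against 8.07 to 8.87 in untreated arrays, and that of the progenitor list was 6.94 to 7.39 in KCl arrays, against 6.72 to 7.11 in untreated arrays. Within pairs the progenitor mean was higher with KCl in all 4, at 7.14 against 6.94, 7.37 against 7.11, 7.39 against 6.82 and 6.94 against 6.72. The part of these cells in the KCl values of Hes1 and Id3 was not tested.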

How the data were processed

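Per the labels' protocols, RNA for the 8 arrays was prepared with Affymetrix's WT Plus kit. What the authors deposited is a table of log2 probe set values. RMA and Partek are named in the submitters' processing notes, and versions, settings, genome build and batch adjustment are not given in the sources used here. Groups and replicate numbers came from sample titles.

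Of 34472 probe sets, 23521 had 1 symbol in the platform annotation, 1814 several (none naming a member) and 9137 were unnamed here. The brightest probe set by mean over 8 arrays stood for each of 22180 genes. The KCl test was fitted in R 4.3.3 by limma 3.58.1 (group alone, moderated by eBayes, two-sided, Benjamini-Hochberg over all genes, threshold 0.05). Fits were tested on simulated arrays drawn independently, apart from a shift of the arrays numbered 1 in a small share of genes. They were not tested under the likeness of same-numbered arrays seen here. Columns of other samples numbered 0 and no 2 arrays were identical.

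The labels give both groups the numbers 1 to 4. Same-numbered arrays deviated together from their group means (r = 0.23 to 0.64 across genes, 0.30 at most for other pairs), so the numbers were taken to pair the arrays and a blocked fit was run. Each array has its own mouse number, but how these relate to cultures is not stated, so p-values measure the spread between these samples.

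The members and lists were chosen with earlier results of these data known. Named are all members, list genes past the threshold or else up to 4 of smallest p, and the 5 genes nearest Id1 and Hes1 in profile. Genes called for replicate number, the genes nearest Id3 and Id4, and markers given beside a result were named after their values were seen. Of the listed genes 4 had no probe set of their own symbol. Figures used matplotlib 3.10.9 in Python 3.11.15.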

Additional observations from a re-analysis of the deposited data

Results flagged for a closer look

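Among 20 sets of 4 arrays (10 genes in 2 groups), 2 held an array that lay far from the other 3 by Dixon's test at its 95% level, and chance flags about 1 set in 20. Hey1 was at 6.40 in KCl replicate 2, against 7.54 to 7.74 in the other KCl arrays (gap over range 0.848). Hes6 was at 4.06 in untreated replicate 1, against 4.36 to 4.41 in the other untreated arrays (gap over range 0.852).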

How the results depend on the processing

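No Id, Hes or Hey gene passed in any of the 18 alternatives run (smallest adjusted p 0.0919 to 0.819). All 10 were tested in 17 of them, and 5 where only genes brighter than the median gene entered, which gave the 0.819. The log2 change kept its sign under all alternatives run for Id1 and Hes1 (17 each) and Id2 (18), with 0.12 to 0.57, 0.24 to 0.60 and 0.04 to 0.28. With single arrays left out, the sign turned in some fits for Id3 (-1.20 to 0.18), Id4 (-0.89 to 0.33), Hes5 (-0.0315 to 0.18), Hes6 (-0.070 to 0.058), Hey1 (-0.31 to 0.16), Hey2 (-0.18 to 0.019) and Heyl (-0.045 to 0.12). Without both arrays numbered 1 it was -0.0067 for Hes5 and -0.056 for Hes6, with or without the replicate block, and with array weights it was -0.0071 for Hes6. The cause was not tested. The count of partner and signalling genes past the threshold was 2. It was 5 with the replicate block, 0 to 1 with single arrays left out, and 1 without the arrays numbered 1 with the replicate block, where fewer samples entered. Without those arrays and without the block it was also 2, but these were Jag1 and Rbpj in place of Tle4 and Jag2. The block added Jag1, Rbpj and Bmpr1a, and Npas4, Pax6 and Gad2 among check and marker genes, lost Slc1a2, and changed no call of an Id, Hes or Hey gene. The count over all genes was 524, and it was 985 with the replicate block and 186 without KCl replicate 3. Of the 2 genes whose level differed by replicate number, 2 passed in every fit with a single array left out and 0 without both arrays numbered 1. The scanner files were not analysed here, so signal over background is unknown for the dim genes Hes5, Hes6 and Heyl. The same holds for Id1 and Hes1, whose means over the 8 arrays (4.75 and 4.69) also lay below the median gene (4.76).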
